A study of Mus musculus with 9 samples.

Results

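The platelet adhesion genes described here are 5 mouse genes for integrin chains, a matrix protein, a receptor and a chemokine of platelets: Itga2b, Itgb3, Thbs1, F2rl2 and Pf4. They were taken by symbol from the 27179 gene entries of each library, and the 4 with counts had been selected on their CPM in this same experiment, being higher in doxycycline-treated than in untreated cells. The choice was made with the values of all 3 conditions known, so the values of these genes are a description without a test. All 4 passed the filter on low counts, which left 12004 entries for testing. The fifth, Pf4, had 0 counts in all 9 libraries and was not tested.

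RNA was sequenced from AML246, a C57BL/6 mouse acute myeloid leukaemia line that is p53-/-, carries shPU.1, a hairpin that lowers the transcription factor PU.1 (gene Spi1), and was cultured with IL3. Clones 1, 2 and 4 were each grown from a single sorted cell, and each was measured in 3 conditions, which gave 3 libraries per condition. Washed cells were kept in doxycycline for 14 days, washed, left without drug for a further 14 days and sorted as GFPhigh. Doxycycline cells were sorted as GFPoff after 14 days in the drug, and untreated cells, which never received it, as GFPhigh. All groups share the p53-/- background, the hairpin construct and IL3, and the clones come from 1 line, so the spread between replicates is a spread between clones. Drug, sort gate and hairpin differ between the same groups and cannot be told apart.

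Integrin alpha-IIb, encoded by Itga2b and also known as CD41, pairs with integrin beta-3, encoded by Itgb3 and also known as CD61, to form the fibrinogen receptor through which activated platelets aggregate. Itga2b is also made by early haematopoietic progenitors and mast cells, and the beta-3 chain can instead pair with the alpha-V chain, Itgav, so neither gene alone marks a megakaryocyte. Thrombospondin 1, the product of Thbs1, is a matrix protein stored in platelet alpha granules and also secreted by myeloid cells. F2rl2 encodes the protease-activated receptor PAR3, which in mouse platelets helps thrombin to cut PAR4, and Pf4 encodes platelet factor 4, a chemokine of the alpha granule.

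The starts of the 3 genes that have a RefSeq promoter window are shown, to set the expressed Itga2b and F2rl2 beside the silent Pf4. The windows are RefSeq sequences of GRCm38.p6 that run from 250 bases before to 50 bases after the annotated start, on the strand of the gene. Capitals mark the purine-rich core that PU.1 prefers, GAGGAA, which reads TTCCTC where it lies on the other strand, and the core bound by factors such as Gata1, AGATAA. The windows are chr11:102469834-102470133 on the minus strand for Itga2b, chr13:95696670-95696969 on the plus strand for F2rl2 and chr5:90772185-90772484 on the plus strand for Pf4.
Itga2b: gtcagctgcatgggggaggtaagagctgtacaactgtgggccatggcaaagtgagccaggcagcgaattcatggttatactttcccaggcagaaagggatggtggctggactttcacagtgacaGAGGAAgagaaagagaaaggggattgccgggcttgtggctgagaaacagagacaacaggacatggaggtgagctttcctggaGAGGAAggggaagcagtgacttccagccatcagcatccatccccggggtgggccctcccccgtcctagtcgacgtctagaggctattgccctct
F2rl2: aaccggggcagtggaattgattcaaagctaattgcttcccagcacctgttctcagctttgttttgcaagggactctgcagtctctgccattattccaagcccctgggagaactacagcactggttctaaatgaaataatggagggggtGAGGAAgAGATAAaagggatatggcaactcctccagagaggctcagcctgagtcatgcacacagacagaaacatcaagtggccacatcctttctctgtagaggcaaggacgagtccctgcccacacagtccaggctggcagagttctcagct
Pf4: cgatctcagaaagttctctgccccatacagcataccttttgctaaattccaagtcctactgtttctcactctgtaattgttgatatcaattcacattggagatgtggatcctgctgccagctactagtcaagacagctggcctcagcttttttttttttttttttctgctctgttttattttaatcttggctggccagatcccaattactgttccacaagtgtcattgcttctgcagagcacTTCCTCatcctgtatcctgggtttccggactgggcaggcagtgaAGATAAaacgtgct

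The Itga2b window holds GAGGAA at -126 and -44 and no AGATAA, with positions counted from the start site. The F2rl2 window holds GAGGAA at -102 and, separated from it by 1 base, AGATAA at -95. The silent Pf4 window holds both motifs too, TTCCTC at -8 and AGATAA at 37 bases after the start. Searched on both strands, GAGGAA lies in 28.3% and AGATAA in 11.2% of all 32851 RefSeq windows of this length. None of the 3 windows holds the general ETS motif CGGAAG, the RUNX-type TGTGGT or the SP1-type GGGCGG, which lie in 16.9%, 16.8% and 35.7% of all windows; the motifs searched do not overlap one another at any of the listed positions. These matches describe letters in the windows, and binding was not measured here.

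Library totals ran from 7408118 to 9803258 counts, and 3 counts correspond to 0.265 to 0.550 CPM, a gene's count relative to the depth of its library. CPM values here are scaled by TMM, which sets that depth from the bulk of the genes. In untreated clone 1, 22.0% of counts lay on 1 entry without a symbol, against 0.153% to 1.64% in the other 8 libraries, and its TMM factor was 0.736, against 0.916 to 1.18. The hairpin's target Spi1 was at 23.9 to 52.0 CPM in washed, 156 to 197 CPM in doxycycline and 23.7 to 48.1 CPM in untreated libraries. In bulk RNA, fewer cells of a type and less RNA per cell cannot be told apart, which holds for every value that follows.

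Itga2b (Entrez 16399) spans chr11 102453297 to 102469883 of GRCm38 on the minus strand. It reached 104, 129 and 79.8 CPM in washed clones 1, 2 and 4, 499, 666 and 457 CPM in doxycycline clones 1, 2 and 4, and 244, 180.0 and 83.6 CPM in untreated clones 1, 2 and 4. Every doxycycline library lay above every other library, while the washed and untreated ranges overlapped. The untreated clones were spread widely, with clone 1 highest and clone 4 lowest. The gap between untreated clones 1 and 2 depends on the scaling: it was 179.7 against 178.5 CPM by library size alone, and 230.3 against 179.9 CPM by library size without the largest entry. The group means were 104.5 ± 24.8 CPM in washed, 541 ± 111 CPM in doxycycline and 169 ± 80.8 CPM in untreated cells (SD, n = 3 each). Relative to the same clone untreated, doxycycline cells had 2.04, 3.70 and 5.47 times the CPM in clones 1, 2 and 4.

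Itgb3 (Entrez 16416), the partner chain, lies 2138117 bases from Itga2b on the same chromosome, at chr11 104608000 to 104670476. Its CPM values were 24.8, 32.8 and 22.2 in washed clones 1, 2 and 4, 103, 159 and 136 in doxycycline clones 1, 2 and 4, and 42.6, 40.7 and 23.4 in untreated clones 1, 2 and 4. The doxycycline libraries again lay above the rest with no overlap, and washed and untreated ranges overlapped. Untreated clone 4 stood apart from the other untreated clones, at the level of the washed cells. Group means were 26.6 ± 5.58 CPM in washed, 133 ± 28.4 CPM in doxycycline and 35.5 ± 10.6 CPM in untreated cells (SD, n = 3 each).

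Thbs1 (Entrez 21825; chr2 118111876 to 118127133), the matrix protein, was the most abundant of the set per kilobase of gene length in all 9 libraries. It gave 1439, 434 and 785 CPM in washed clones 1, 2 and 4, 3765, 3141 and 3742 CPM in doxycycline clones 1, 2 and 4, and 1350, 779 and 766 CPM in untreated clones 1, 2 and 4. The doxycycline libraries were close to each other and above all others, washed and untreated ranges overlapped, and clone 1 was the highest both in washed and in untreated cells. Among the 12004 tested genes ranked per kilobase, Thbs1 stood at places 57, 94 and 50 in doxycycline clones 1, 2 and 4 and between places 199 and 1043 in the other libraries. Means were 886 ± 510 CPM in washed, 3549 ± 354 CPM in doxycycline and 965 ± 334 CPM in untreated cells (SD, n = 3 each). An antisense lincRNA, Gm29233, overlaps Thbs1, and without a stated strand setting its reads cannot be told apart from those of Thbs1.

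F2rl2 (Entrez 14064; chr13 95696920 to 95702768), the PAR3 receptor gene, was low and had the largest relative difference of the 4. It gave 4.69, 5.64 and 4.28 CPM in washed clones 1, 2 and 4, 63.5, 84.2 and 56.3 CPM in doxycycline clones 1, 2 and 4, and 9.17, 7.68 and 3.95 CPM in untreated clones 1, 2 and 4. These values rest on 51, 46 and 35 counts in washed, 720, 636 and 581 counts in doxycycline and 50, 61 and 32 counts in untreated clones 1, 2 and 4. The doxycycline libraries were far above all others, and washed and untreated cells overlapped. The gene lies inside Iqgap2 on the opposite strand. Iqgap2, a scaffold protein of the cytoskeleton, averaged 165 ± 63.8 CPM in washed, 127 ± 15.9 CPM in doxycycline and 142 ± 13.7 CPM in untreated cells (SD, n = 3 each) and passed neither test (edgeR quasi-likelihood test with Benjamini-Hochberg adjustment, adjusted p = 0.402 for washed against doxycycline and 0.735 for doxycycline against untreated). The highest F2rl2 libraries are thus not those with the highest Iqgap2.

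Pf4 (Entrez 56744; chr5 90772435 to 90773383) had no read in any library, which allows at most 0.265 to 0.550 CPM per library at 3 counts, a limit for counting error alone. Its neighbours in the chemokine cluster were likewise near 0: Ppbp, the other platelet alpha-granule chemokine, had 3 counts in doxycycline clone 4 and none elsewhere, Cxcl5 had none, and Cxcl3 and Cxcl15 averaged at most 0.588 CPM in any condition. In the doxycycline libraries Itga2b stood at places 308 to 449 of 12004 per kilobase and Itgb3 at places 2930 to 4297, while Pf4 was not detectable at this depth.

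**Figure D1:**
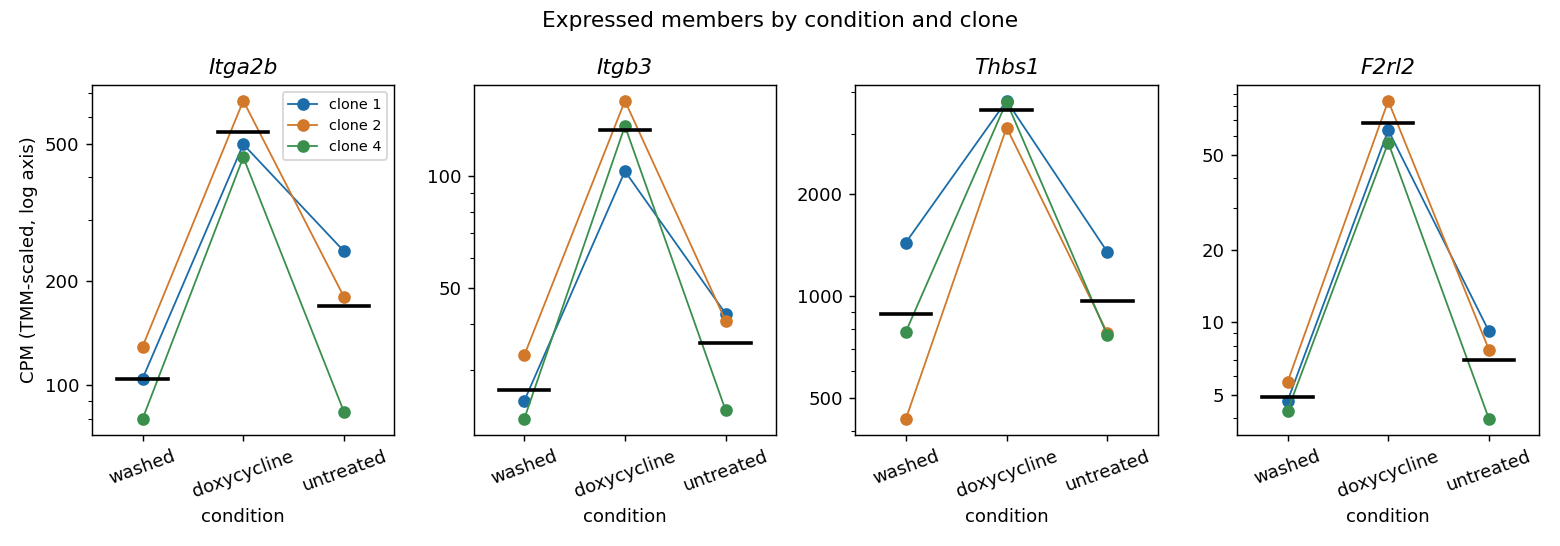
TMM-scaled CPM (vertical log axis, a different range in each panel) of the 4 expressed genes in washed, doxycycline and untreated cells; points are single libraries, lines join libraries of 1 clone and black bars are group means. The doxycycline libraries lie above all others in each panel, and untreated clone 4 lies beside the washed libraries for Itga2b, Itgb3 and F2rl2.

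As a description of the comparison on which the genes were selected, doxycycline over untreated gave log2 fold changes of 1.68 for Itga2b, 1.91 for Itgb3, 1.88 for Thbs1 and 3.30 for F2rl2. All 4 are among the 789 genes, 6.57% of those tested, that were higher in doxycycline cells, and 522 genes, 4.35%, were lower; nothing is read from this count of members. The within-clone ratio of doxycycline to untreated was smallest in clone 1 and largest in clone 4 for each of the 4 genes. For F2rl2 it was 6.93, 10.95 and 14.2 in clones 1, 2 and 4, and for Thbs1 2.79, 4.03 and 4.89. For Itgb3 it was 2.42, 3.92 and 5.84. These orders rest on single libraries, and clone 1 enters with the library whose scaling is most uncertain. An edgeR test of whether the response to hairpin state differs between clones called 0 of 12004 genes, 0%, with 407 at an unadjusted p under 0.05. It took washed and untreated libraries together as a single state, so it does not test the ratios of doxycycline to untreated. With 3 residual degrees of freedom the lack of calls does not show that the clones responded alike.

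After washout the 4 genes were lower than in doxycycline cells in 3 of 3 clones each. Washed minus doxycycline, edgeR's log2 difference was -2.37 ± 0.38 for Itga2b, -2.32 ± 0.28 for Itgb3, -2.00 ± 0.43 for Thbs1 and -3.8 ± 0.33 for F2rl2 (SE, n = 3 per group). All 4 are among the 723 genes, 6.02% of those tested, that were lower in washed than in doxycycline cells by edgeR's quasi-likelihood test with Benjamini-Hochberg adjustment, and 437 genes, 3.64%, were higher. Since the genes were selected for high doxycycline values, a fall was favoured by that choice, no p is given for them and nothing is read from this count. Among all 12004 fitted changes ordered from the largest fall, F2rl2 came at place 58, Itga2b at 158, Itgb3 at 165 and Thbs1 at 234. The sizes varied with the clone left out. Without clone 1 they were -2.43 for Itga2b, -2.43 for Itgb3, -2.50 for Thbs1 and -3.82 for F2rl2, without clone 2 they were -2.37, -2.35, -1.75 and -3.73, and without clone 4 they were -2.30, -2.18, -1.87 and -3.82. All 4 stayed among the called genes without clone 1, F2rl2 alone did without clone 2, and none did without clone 4. Over all genes, 670 were called lower without clone 1, 49 without clone 2 and 3 without clone 4. A lost call is therefore not particular to these genes.

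Within clones, F2rl2 fell by a similar factor in each: doxycycline cells had 13.5, 14.9 and 13.15 times the CPM of washed cells in clones 1, 2 and 4. Thbs1 varied most, with doxycycline cells at 2.62, 7.23 and 4.77 times the washed CPM. For Itga2b the same factors were 4.78, 5.15 and 5.73, and for Itgb3 4.16, 4.85 and 6.16.

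Whether the genes returned to the untreated level was addressed by washed against untreated cells, which shares the untreated libraries with the selection. The log2 differences were -0.70 ± 0.36 for Itga2b, -0.42 ± 0.27 for Itgb3, -0.12 ± 0.42 for Thbs1 and -0.50 ± 0.32 for F2rl2 (SE, n = 3 per group), given as a description. Over all genes edgeR called 0 higher (0%) and 0 lower (0%), with 38 genes at an unadjusted p under 0.05, and DESeq2 and limma voom also called 0, with 41 and 25 at an unadjusted p under 0.05. With TMM, clone 1 held most of the difference for 3 of the genes: washed cells had 0.4275 times the untreated Itga2b CPM in clone 1, 0.718 in clone 2 and 0.954 in clone 4. For F2rl2 these ratios were 0.512, 0.734 and 1.08, and for Itgb3 0.582, 0.807 and 0.949. The place of clone 1 depends on the scaling. By library size alone, washed and untreated clone 1 had 122.7 and 179.7 CPM of Itga2b, 29.1 and 31.3 of Itgb3 and 5.52 and 6.75 of F2rl2. Clone 2 had 127 and 178.5, 32.3 and 40.4, and 5.54 and 7.62 CPM. Without the largest entry, clone 1 had 123 and 230.3, 29.2 and 40.1, and 5.53 and 8.65 CPM. Without untreated clone 1 the log2 difference was -0.33 for Itga2b, -0.27 for Itgb3 and -0.25 for F2rl2. Thbs1 had another pattern, with ratios of 1.07, 0.557 and 1.03 in clones 1, 2 and 4, and its small difference turned to 0.20 without untreated clone 1. That no gene was called does not show that the levels were equal.

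**Figure D2:**
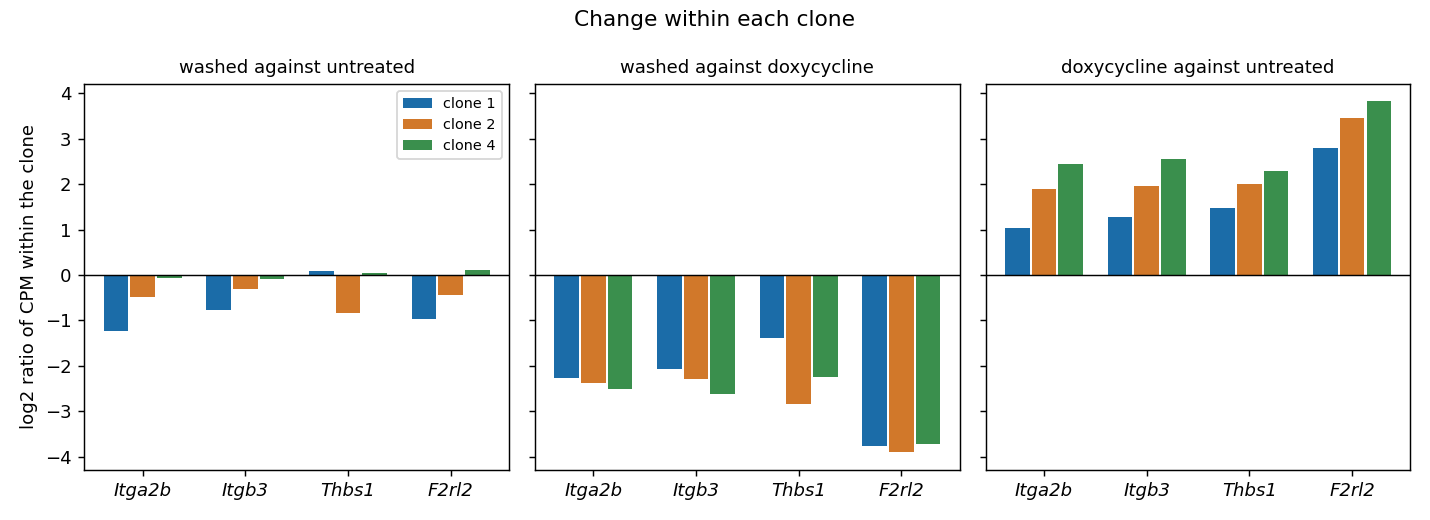
Log2 ratio of CPM between 2 conditions of the same clone (vertical axis) for the 4 expressed genes, with 1 bar per clone and no error bar because each is a ratio of 2 libraries. Ratios of washed to doxycycline are below 0 in all 12 cases, ratios of doxycycline to untreated rank clone 4 above clone 2 above clone 1, and ratios of washed to untreated lie between -1.23 and 0.12.

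The ratio of the 2 chains of the fibrinogen receptor stayed between 5.64 and 9.65 while both levels changed. Per kilobase, Itga2b exceeded Itgb3 by 7.09, 6.62 and 6.06 times in washed clones 1, 2 and 4, by 8.15, 7.03 and 5.64 times in doxycycline clones 1, 2 and 4, and by 9.65, 7.44 and 6.03 times in untreated clones 1, 2 and 4. The clones differed in the same order in each condition, clone 1 highest and clone 4 lowest. The mean ratio was 6.59 ± 0.517 in washed, 6.94 ± 1.26 in doxycycline and 7.71 ± 1.83 in untreated cells (SD, n = 3 each). Both genes were chosen with the values of all 3 conditions known, so these ratios are a description without a test. With so few libraries they do not show that the proportion was constant.

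Itgav, the other alpha chain that pairs with beta-3, was much lower per kilobase and moved in the same direction. It averaged 16.2 ± 2.64 CPM in washed, 44.6 ± 4.37 CPM in doxycycline and 15.0 ± 0.556 CPM in untreated cells (SD, n = 3 each). Itgav rose in doxycycline against untreated cells by 1.57 ± 0.19 on the log2 scale (SE, edgeR adjusted p = 0.00217) and fell by 1.46 ± 0.19 after washout (adjusted p = 0.0027). Per kilobase, the ratio of Itga2b to Itgav was 11.2, 17.3 and 11.6 in washed clones 1, 2 and 4, 21.2, 29.8 and 23.6 in doxycycline clones 1, 2 and 4, and 32.5, 25.7 and 11.3 in untreated clones 1, 2 and 4. Washed and doxycycline ratios did not overlap, with means of 13.4 ± 3.42 and 24.9 ± 4.41 (SD, n = 3 each), whereas the untreated clones covered the range of both. Itga2b belongs to the selected genes, so these ratios too are a description without a test.

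**Figure D3:**
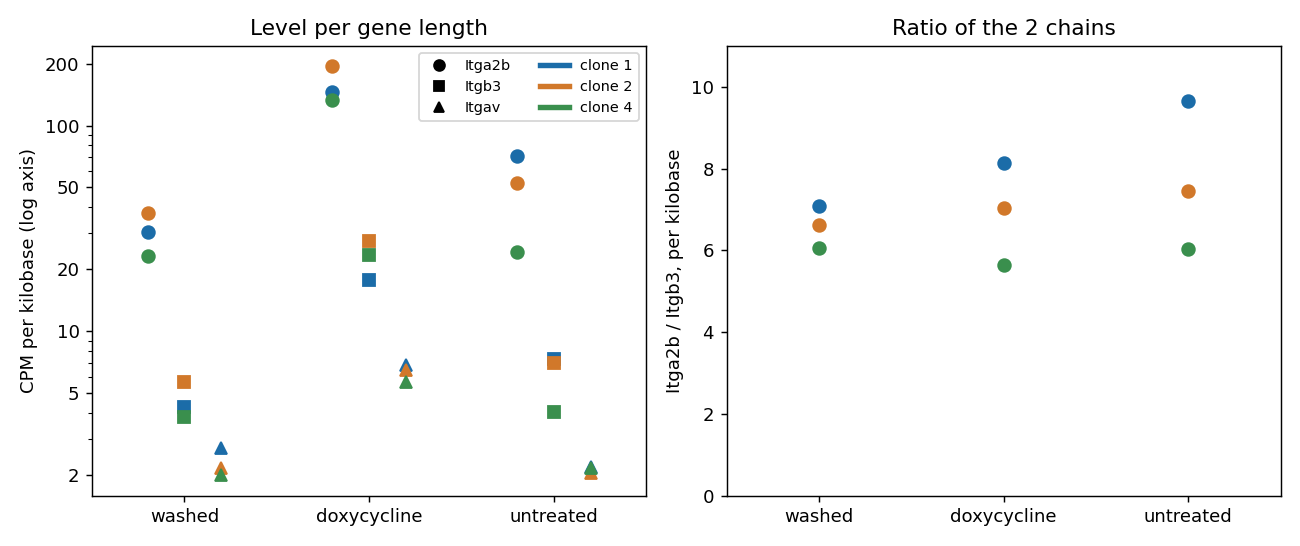
Left, CPM per kilobase of gene length (log axis) of Itga2b, Itgb3 and Itgav by condition and clone; right, the ratio of Itga2b to Itgb3 in the same libraries, on an axis that starts at 0. Each point is 1 library: the levels of all 3 genes are highest in doxycycline cells, while the ratio stays between 5.64 and 9.65.

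Across the 9 libraries the expressed genes rose and fell together, although the 3 conditions alone give any responsive genes a high correlation, so these values are a description. On log2 CPM, Pearson's r was 0.987 between Itgb3 and F2rl2, 0.978 between Itga2b and Itgb3 and 0.969 between Itga2b and F2rl2, and 0.840 to 0.889 between Thbs1 and the other 3. Among 9094 genes that averaged at least 3 on the log2 CPM scale, the closest to Itga2b were Lipg (endothelial lipase, r = 0.982), Itgb3, 5031439G07Rik, F2rl2 and Atrnl1. The closest to Itgb3 were Lipg (r = 0.989), F2rl2, Ginm1, Pglyrp1 and Timp2. F2rl2 was closest to Pglyrp1 (a neutrophil granule protein that binds peptidoglycan, r = 0.994), Lfng, Cd44, Mtmr3 and Itgb3. None of the 5 genes nearest to Thbs1, Rab11fip1 (r = 0.993), Abcd2, Abca3, Gm1966 and Hook3, was among those nearest to another member. Lipg, which led for both integrin chains, averaged 9.34 CPM in washed, 220.1 CPM in doxycycline and 17.9 CPM in untreated cells.

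On the chromosome, the neighbour of Itga2b on its lower side that was tested, Grn, which encodes the growth factor progranulin, was also called. It averaged 160.2 CPM in washed, 474 CPM in doxycycline and 182 CPM in untreated cells (log2 change -1.56 for washed against doxycycline, adjusted p = 0.00647; 1.38 for doxycycline against untreated, adjusted p = 0.0102; edgeR). On the other side Gpatch8 averaged 68.3 CPM in washed, 76.4 CPM in doxycycline and 68.9 CPM in untreated cells and passed no test. The nearest genes of Itgb3 and Thbs1 that have an entry in the files averaged at most 1.66 CPM in any condition.

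The label of the set was checked against 15 markers that define megakaryocytes. Most were at or near 0 in every library: Treml1 had no count, and 7 of the 15, Treml1 included, stayed below 1 CPM everywhere. Leaving out Gata1 and Nfe2, which other blood cells also use, the remaining 13 summed to 2.76 to 12.85 CPM in washed, 8.91 to 12 CPM in doxycycline and 4.77 to 10.6 CPM in untreated libraries. By comparison, Itga2b alone ran from 457 to 666 CPM in doxycycline cells. The defining transcripts of megakaryocytes were thus near 0, and the set is called by its genes rather than by that cell type.

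Of the 5 markers tested, Gp9 was the one called. Gp9, part of the von Willebrand factor receptor, had 1, 4 and 0 counts in washed clones 1, 2 and 4, 36, 19 and 27 counts in doxycycline clones 1, 2 and 4, and 0, 5 and 0 counts in untreated clones 1, 2 and 4. It would not have passed the filter on low counts without the doxycycline libraries, so its p is not given and its call supports nothing. Its partner Gp1ba averaged 4.18 ± 2.61 CPM in washed, 3.78 ± 2.52 CPM in doxycycline and 3.30 ± 1.21 CPM in untreated cells (SD, n = 3 each) and passed no test. Gata1, the transcription factor of erythroid and megakaryocytic cells, averaged 98.0 ± 69.4 CPM in washed, 55.5 ± 38.9 CPM in doxycycline and 103 ± 16.7 CPM in untreated cells (SD, n = 3 each; edgeR adjusted p = 0.493 for washed against doxycycline and 0.44 for doxycycline against untreated). Within each clone Gata1 was lowest in doxycycline cells, opposite to the set. With the clone as a block its edgeR adjusted p was 0.181 and 0.0577 in the same order. Nfe2, a factor of late megakaryocytes and of other myeloid cells, averaged 240 ± 6.30, 231 ± 5.87 and 260.0 ± 29.3 CPM in washed, doxycycline and untreated cells and passed no test. Clec1b, a platelet lectin receptor, gave 34 counts in doxycycline clone 1 and at most 3 in any other library, and Vwf at most 6.

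**Figure D4:**
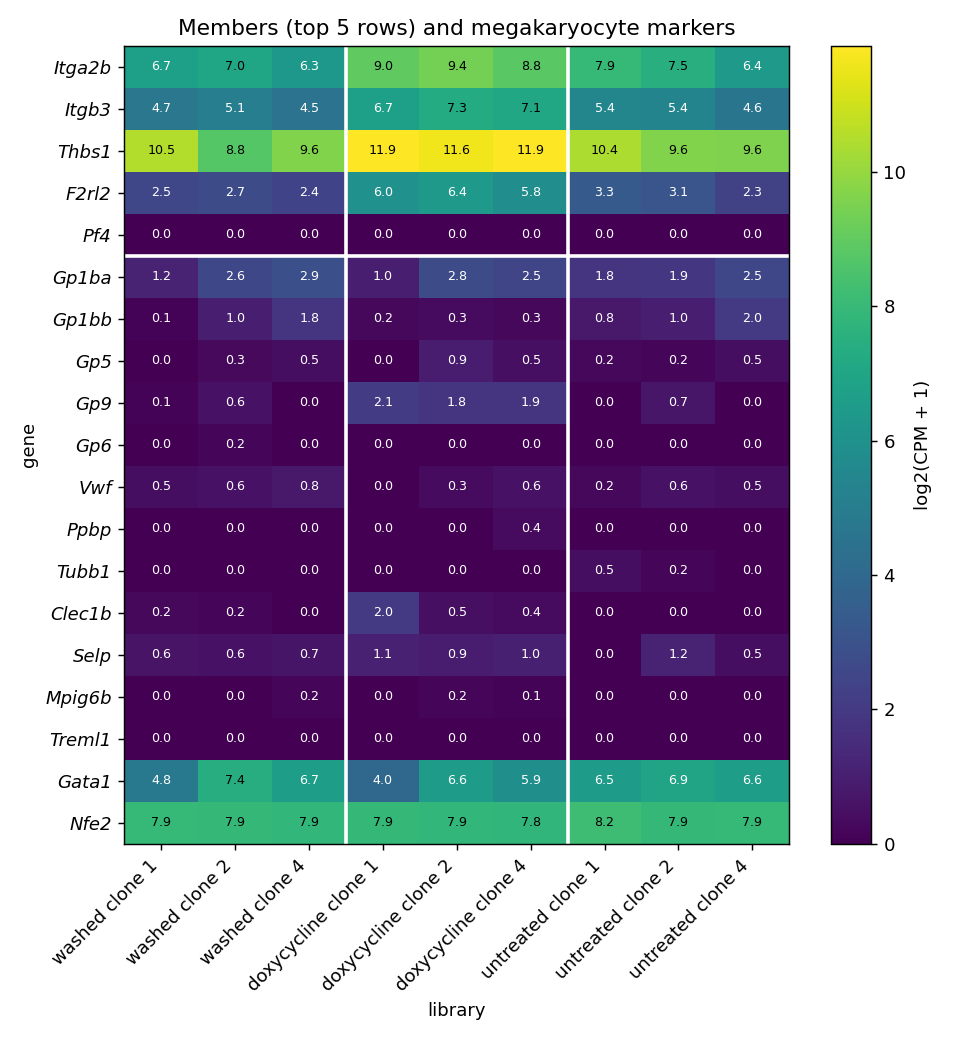
Heat map of log2(CPM + 1) with 1 column per library and 1 row per gene, the 5 genes of the set above the white line and megakaryocyte-defining markers below it. Itga2b, Itgb3, Thbs1 and F2rl2 are brightest in the doxycycline columns, Pf4 is 0 in all 9, and among the markers shown only Gata1 and Nfe2 pass 10 CPM in any library.

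Markers of another cell type moved in the same direction as the set. The 12 neutrophil markers summed to 49.6 to 80.2 CPM in washed, 644.5 to 2499 CPM in doxycycline and 37.1 to 119 CPM in untreated libraries. Of 10 tested, 8 (80%) rose in doxycycline and fell after washout, beside 6.57% and 6.02% of all genes. Of these 8, 2, Ly6g and Retnlg, would not have passed the filter on low counts without the doxycycline libraries, so their calls support nothing. Camp and Ltf were not called in either comparison. Lcn2, a granule protein of neutrophils, averaged 4.81 CPM in washed, 172 CPM in doxycycline and 4.96 CPM in untreated cells. Their sum was highest in doxycycline clone 1 and lowest in doxycycline clone 2, whereas Itga2b, Itgb3 and F2rl2 were highest in doxycycline clone 2. The summed monocyte and macrophage markers ran from 1813 to 2255 CPM in washed, 1216 to 5387 CPM in doxycycline and 1788 to 2309 CPM in untreated libraries, and mast cell and basophil markers from 1039 to 3794, 727 to 2750 and 2770 to 3549 CPM. Summed eosinophil markers gave 8371 to 10960 CPM in washed, 3959 to 5115 CPM in doxycycline and 8410 to 12480 CPM in untreated libraries. The doxycycline sums lay below the rest with no overlap. Gene by gene, 3 of 8 tested (37.5%) rose in doxycycline cells and 1 (12.5%) fell, beside 6.57% and 4.35% of all genes. After washout 2 (25%) fell and 1 (12.5%) rose, beside 6.02% and 3.64%. Among the called, Il5ra and Siglecf would not have passed the filter on low counts without the doxycycline libraries, so their calls support nothing. Summed B, T and NK cell markers gave 220.4 to 372 CPM in washed, 86.9 to 205.5 in doxycycline and 217 to 272 in untreated libraries. This sum was also lowest in doxycycline libraries, but 10 of the 13 markers stayed below 1 CPM everywhere and none of 3 tested was called. Erythroid sums overlapped, at 189 to 757, 189.5 to 404 and 191 to 414 CPM in the same order. The part of these cell types in the values of the platelet adhesion genes was not tested.

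Relatives of the members did not all move with them. Of the other protease-activated receptors, F2r, which encodes PAR1, gave 9.39, 56.5 and 29.4 CPM in washed clones 1, 2 and 4, 12, 79.5 and 36.2 CPM in doxycycline clones 1, 2 and 4, and 40.4, 58.2 and 23.7 CPM in untreated clones 1, 2 and 4. Its groups overlapped and it passed no test (edgeR adjusted p = 0.767 for washed against doxycycline and 0.968 for doxycycline against untreated), and clone 2 was highest in each condition. F2rl3, which encodes PAR4, the receptor that mouse PAR3 assists, averaged 2.54 ± 2.82 CPM in washed, 1.93 ± 0.544 CPM in doxycycline and 1.63 ± 0.830 CPM in untreated cells (SD, n = 3 each) and passed no test. F2rl1, which encodes PAR2, was below the filter, with 0, 9 and 10 counts in washed, 6, 57 and 73 counts in doxycycline and 0, 9 and 3 counts in untreated clones 1, 2 and 4. Among the other thrombospondins, Thbs2 had 1 count in all libraries together, Thbs3 at most 10 counts in a library, and Thbs4 averaged 4.55 ± 2.19 CPM in washed, 2.20 ± 0.624 CPM in doxycycline and 4.60 ± 1.45 CPM in untreated cells (SD, n = 3 each; edgeR adjusted p = 0.202 and 0.185).

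The wider platelet machinery was read in 7 lists that leave out the 5 members, 151 genes of which 105 were tested. The lists were chosen with earlier results of these data known. Their shares beside those of all genes, and the adjusted p of their genes, are therefore a description. In doxycycline against untreated cells 16 rose and 1 fell, 15.2% and 0.952% of those tested, beside 6.57% and 4.35% over all genes, with a median log2 fold change of 0.31 against 0.00 over all genes. After washout 17 fell and 1 rose, 16.2% and 0.952% beside 6.02% and 3.64% over all genes, with a median of -0.33 against 0.04 over all genes, and against untreated cells washed cells had 0 calls among the 105. Of the 105, 4 would not have passed the filter without the doxycycline libraries, of which Gp9 and Tbxas1 are among the 17 that fell and Tbxas1 among the 16 that rose. With the clone as a block the counts were 34 higher and 9 lower for doxycycline against untreated, beside 1566 and 1410 over all genes. The 9 that moved against the set were Rapgef3, Rasgrp2, F13a1, Timp3, P2ry1, Lat, Pla2g4a, Gata2 and Tpm4. For washed against doxycycline the block gave 34 lower and 5 higher, beside 1492 and 1252 over all genes. The 5 were Rapgef3, Rasgrp2, Timp3, P2ry1 and Tpm1. The counts depend on which clone is left out, in the lists and over all genes. Without clone 1, 21 rose and 3 fell in doxycycline cells, beside 618 and 349 over all genes. After washout 21 fell and 3 rose, beside 670 and 399. Without clone 2 there was 1 call in doxycycline against untreated, beside 108 higher and 51 lower over all genes. After washout there was none, beside 49 lower and 21 higher. Without clone 4 there was none in either comparison. Over all genes there were then 0 higher and 0 lower in doxycycline cells, and 3 lower and 1 higher after washout. Without untreated clone 1, 3 list genes rose in doxycycline cells and 8 fell after washout, beside 237 and 477 over all genes.

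Among genes of integrin activation, which carry signals to the cytoplasmic tail of the beta chain, 6 of 19 (31.6%) rose in doxycycline cells and 1 (5.26%) fell, beside 6.57% and 4.35% of all genes, and after washout 5 (26.3%) fell and 1 (5.26%) rose, beside 6.02% and 3.64%. Tln1, the talin that binds the tail, averaged 699 ± 132 CPM in washed, 1201 ± 269.9 CPM in doxycycline and 619 ± 46.7 CPM in untreated cells (SD, n = 3 each; edgeR adjusted p = 0.0655 for washed against doxycycline, or 0.0464 with the clone as a block, and 0.0311 for doxycycline against untreated). Apbb1ip, which encodes RIAM, the adaptor between Rap1 and talin, averaged 55.1 ± 13.9, 102 ± 16.1 and 48.1 ± 4.47 CPM in washed, doxycycline and untreated cells (adjusted p = 0.0335 and 0.015). Rap1b, the small GTPase of that step in platelets, averaged 75.0 ± 6.91, 120.5 ± 11 and 76.3 ± 8.74 CPM (adjusted p = 0.0298 and 0.0315). Skap2, an adaptor, Cib1, which binds the alpha-IIb tail, and Ptpn1, a phosphatase, were also called in both comparisons, with means of 32.0, 83.6 and 28.7 CPM for Skap2, 31.9, 54.5 and 29.9 CPM for Cib1 and 51.6, 108 and 52.5 CPM for Ptpn1 in washed, doxycycline and untreated cells. Rapgef3, a cAMP-sensitive exchange factor for Rap1, moved the other way, with 57.3 ± 7.41 CPM in washed, 33.1 ± 5.56 CPM in doxycycline and 60.5 ± 5.57 CPM in untreated cells (adjusted p = 0.03 and 0.0199).

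Of 18 genes of agonist receptors and their signalling, 4 (22.2%) rose in doxycycline cells and 4 (22.2%) fell after washout, beside 6.57% and 6.02% of all genes, and these were enzymes and adaptors. Tbxas1, thromboxane synthase, averaged 0.613 ± 0.442 CPM in washed, 9 ± 2.30 CPM in doxycycline and 0.309 ± 0.282 CPM in untreated cells (SD, n = 3 each); as it passed the filter on low counts only through the doxycycline libraries, its p is not given. Ptgs1, the cyclooxygenase upstream of it, averaged 29.4 ± 24.5, 122.5 ± 67.9 and 18.1 ± 5.39 CPM in washed, doxycycline and untreated cells (edgeR adjusted p = 0.0614 for washed against doxycycline, or 0.00275 with the clone as a block, and 0.0234 for doxycycline against untreated). The phospholipases Plcb2 and Plcg2 averaged 96.8 and 190 CPM in washed, 182 and 355 CPM in doxycycline and 93.9 and 194 CPM in untreated cells, and both were called in both comparisons. The adaptor Lcp2 fell after washout, to 128 ± 13.4 CPM in washed against 210 ± 22.1 CPM in doxycycline cells (adjusted p = 0.024), with 143 ± 7.09 CPM in untreated cells (doxycycline against untreated, adjusted p = 0.0528, or 0.0261 with the block).

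In the list of cytoskeleton and granule biogenesis, 4 of 19 (21.1%) rose in doxycycline cells and 4 (21.1%) fell after washout, beside the same 6.57% and 6.02%. These were Myh9, the heavy chain of non-muscle myosin IIA, at 892 ± 34.2, 1898 ± 481 and 894 ± 41.4 CPM in washed, doxycycline and untreated cells, Plek, the protein kinase C substrate pleckstrin, at 192 ± 60.1, 521 ± 177 and 222 ± 28.2 CPM, Nbeal2, needed for alpha granules, at 153 ± 25.1, 348.5 ± 108 and 162 ± 18.8 CPM, and Vamp8, a granule SNARE protein, at 79.4 ± 10.8, 131.5 ± 18.6 and 67.5 ± 3.04 CPM (SD, n = 3 each). Of 12 adhesion receptors, Itgav (8.33%) was higher in doxycycline cells, which is near the 6.57% of all genes. Itgav and Gp9 (16.7%) were lower after washout, beside 6.02%, and Gp9 passed the filter only through the doxycycline libraries. Of 19 transcription factors 1, Hhex, rose in doxycycline cells, which at 5.26% is near the share of all genes, and Hhex and Mrtfa (10.5%) fell after washout. Hhex stood at 45.8 ± 9.60, 118 ± 28.5 and 44.2 ± 3.86 CPM in washed, doxycycline and untreated cells, and Mrtfa, a coactivator of serum response factor, had an adjusted p of 0.0339 after washout and of 0.0684, or 0.0123 with the block, in doxycycline against untreated. None of 11 tested matrix and granule genes and none of 7 of the thrombopoietin axis was called by edgeR in these comparisons, with 1 and 2 and with 1 and 0 called higher and lower in doxycycline cells under the block. Myh9, Tln1, Plcg2 and many other called genes are active in myeloid cells in general, so their lists do not single out platelets.

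**Figure D5:**
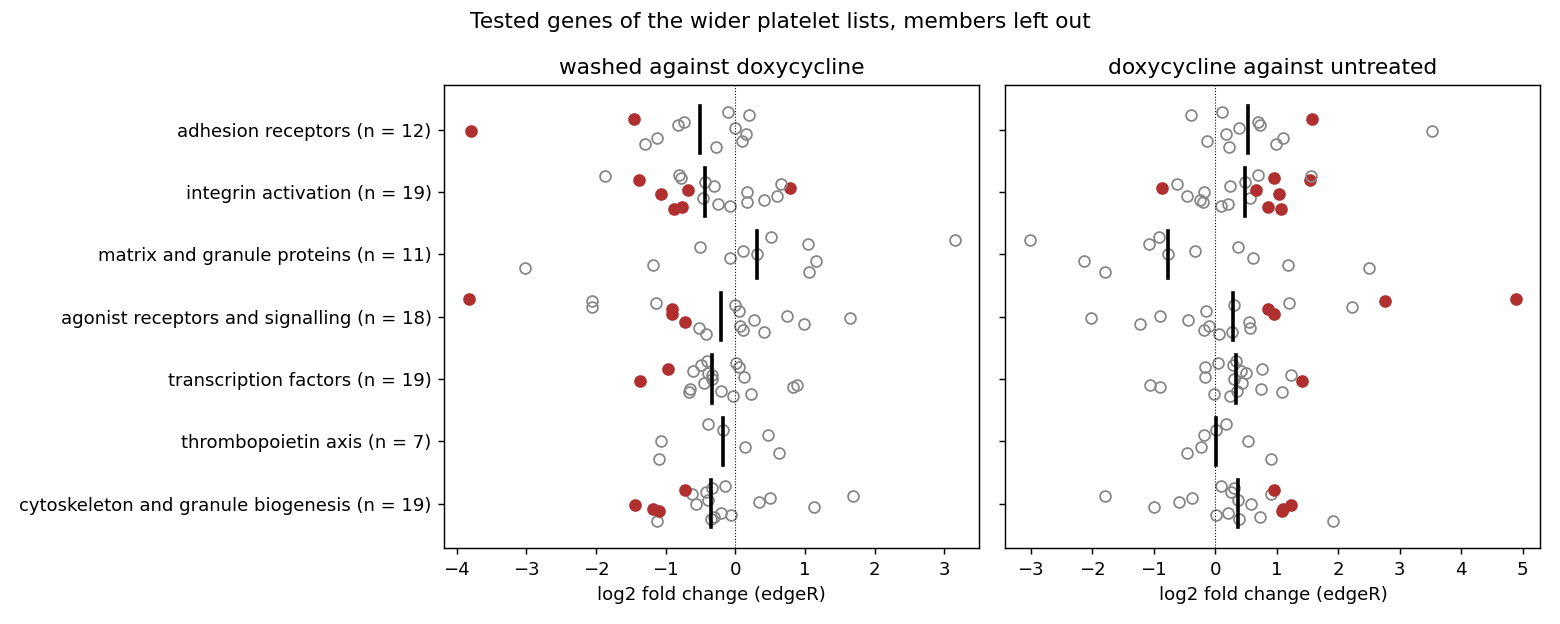
Log2 fold change (horizontal axis) of each tested gene in the 7 lists that leave out the members, for washed against doxycycline on the left and doxycycline against untreated on the right; filled points passed an adjusted p of 0.05, open points did not, and black bars are list medians. Filled points lie mostly below 0 on the left and above 0 on the right, with Rapgef3 as the exception in both panels and none in the matrix and thrombopoietin lists.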

How the data were processed

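Each library has 1 deposited file of raw, unnormalized counts by Entrez ID with a gene length, per the file headers. The submitters' processing notes name the mm10 build, limma 3.22.0, edgeR 3.8.2, featureCounts and CASAVA 1.8.2. Aligner, annotation version and strand setting: not given in the sources used here. Per the labels' protocols, RNA came from sorted cell pellets lysed and prepared on the same day.

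Members and lists were chosen with earlier results of these data known. RefSeq's GRCm38 (mm10) table supplied symbols and coordinates. Of 27179 entries 25275 matched a symbol, and of 226 symbols in the lists 224 matched an entry. RefSeq promoter windows were used for the 3 members that have one, and Itgb3 and Thbs1 are named only.

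Counts were filtered with filterByExpr, scaled by TMM and fitted in R 4.3.3 with edgeR 4.0.16, using group means over all 9 libraries, the quasi-likelihood test and Benjamini-Hochberg adjustment at 0.05. The SE equals the absolute log2 fold change over the square root of F, and a prior count of 2 went into log2 CPM. The response of clones was tested with clone, hairpin state (doxycycline against washed and untreated together) and their interaction, with 3 residual degrees of freedom. The pipeline was tested on simulated data. No pair of libraries agreed within sampling noise (chi-square per degree of freedom of at least 3.58), so each counted once.

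Libraries of 1 clone come from the same cells, so the clone number pairs them. Their deviations from the group means correlated at 0.29 to 0.68 in all 9 pairs. The lowest, 0.29, was between washed and doxycycline clone 4, and washed clone 4 reached 0.323 with a doxycycline library of another clone. In every other pair the same clone gave the higher value. The clone block was an alternative, as were DESeq2 1.42.0, voom in limma 3.58.1, RLE size factors, scaling by library size alone, testing without a filter or at 5 CPM in 3 libraries, the 2 groups alone, the largest entry left out, and each clone or clone 1 library left out. Named genes were the members, Spi1, relatives of the members, up to 6 called genes of smallest p per list and comparison, the 5 genes most like each member and the 2 nearest genes on each side. The values of 1 marker gene are not reported here.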

Additional observations from a re-analysis of the deposited data

How the results depend on the processing

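The members' directions in doxycycline against untreated and in washed against doxycycline held under every alternative run. The falls of Itga2b, Itgb3 and F2rl2 stayed among edgeR's called genes except without clone 4 and, for both integrin chains, without clone 2. Over all genes, 3 were called lower without clone 4 and 49 without clone 2. With libraries left out the falls of Itga2b, Itgb3 and F2rl2 ran from -2.43 to -2.30, from -2.43 to -2.18 and from -3.82 to -3.73. Thbs1 ran from -2.54 to -1.75, missing the threshold without clone 2 or 4, and was at -1.98 with the 2 groups alone, where it also missed it. For washed against untreated, Thbs1 (-0.12) turned to 0.19 with library size alone and ran from -0.66 to 0.20 with libraries left out, 0.07 without clone 2. The log2 ratio of Itga2b to Itgb3, washed against doxycycline, ran from -0.14 to 0.01 with clones left out, and that of Itga2b to Itgav, doxycycline against untreated, from -0.20 to 0.64; the causes were not tested.

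Counts of genes moved more. For doxycycline against untreated, the clone block gave 1566 higher and 1410 lower, against 789 and 522; library size alone gave 796 and 257, with the median of all genes at 0.231; DESeq2 gave 974 lower and the 2 groups alone 858 lower; with libraries left out the counts ran from 0 to 1266 higher and 0 to 992 lower. For washed against doxycycline, the replicate block gave 1252 higher and 1492 lower, against 437 and 723, library size alone 242 and 406, the 2 groups alone 94 and 230, and DESeq2 894 higher; with libraries left out they ran from 1 to 801 higher and 3 to 1013 lower. For the 105 list genes in doxycycline against untreated, the block gave 34 higher and 9 lower, the 2 groups alone 26 and 4, library size alone 0 lower, DESeq2 3 lower and voom 2 lower, and leaving libraries out 0 to 26 higher and 0 to 5 lower. In washed against doxycycline the block gave 5 higher and 34 lower, the 2 groups alone 0 and 4, library size alone 0 and 7, DESeq2 3 higher, and leaving libraries out 0 to 6 higher and 0 to 26 lower. The clone block changed no call of a member. Pf4 has no count and Thbs2, Ppbp and several megakaryocyte markers lie at or under 3 counts in every library, where depth limits any comparison.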
